A study of Drosophila melanogaster with 4 samples.

Results

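Of the 133 transposon rows in a deposited table of Piwi-bound small RNAs, 90 were examined here, out of 14064 rows in all. They were chosen by name. They are the rows left after 8 soma-active gypsy-group elements (ZAM, GTWIN, IDEFIX, QUASIMODO, STALKER4, Gypsy, Gypsy5 and HMSBEAGLE), 3 telomeric rows (HETA and TART) and 32 LINE rows were set aside. By their names 60 of the 90 are LTR retrotransposons and 26 are DNA transposons. The other 4 rows are neither: DMCR1A is a LINE of the CR1 type and TAHRE is a telomeric non-LTR element, LmeSINE1c carries the name of a coelacanth SINE, and PLACW carries that of an engineered P-element vector. The classes were assigned from textbook knowledge of the elements, with the values already known.

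The cells, called ovarian somatic cells (OSC), are a Drosophila melanogaster line with the character of follicle cells, the somatic cells around the germline, grown at 26 degrees. All 4 libraries came from cells that received an siRNA against Yb (siYb) and a plasmid, and all were made from RNAs of 23 to 30 nucleotides recovered with a Flag antibody from Piwi complexes. The plasmid carried wild-type Yb (Yb WT, 2 libraries) or Yb without the region named Hel-C (Yb ΔHel-C, also 2 libraries). At issue in the study was what Yb bodies need for their assembly and for transposon silencing. The cells were transfected populations, and the values do not show how many cells took up the plasmid or how much Yb of either form they held.

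Piwi-interacting RNAs (piRNAs) guide Piwi, a nuclear Argonaute protein, to transposon transcripts that match them. In the somatic cells of the ovary piRNAs are cut from long single-stranded precursors, many of them from the flamenco locus, which is packed with remnants of LTR retrotransposons. Yb, a Tudor-domain protein with a helicase-like region, collects these precursors in Yb bodies beside the mitochondria, where they are processed. A read on a transposon row is thus a Piwi-bound small RNA that matches that element, and not a measure of the element's own mRNA.

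The table holds a single value column for each group in RPM, that is, reads per 1000000 reads. The values correspond to totals of 2955141 reads for Yb WT and 2803305 reads for Yb ΔHel-C. With 1 column per group no difference below has a replicate check, and no test between the conditions was possible. Ratios carry exact 95% intervals, which cover counting error only, and reads without molecular identifiers are not independent molecules. In RNA pooled from many cells, fewer cells with an RNA and less of it per cell cannot be told apart. The 4 genes listed for the ovarian soma (tj, piwi, fs(1)Yb and zfh1) had between 406 and 6972 RPM and differed between the columns in both directions. Of these, piwi is not particular to the soma and does not set it apart from the germline. The level of tj was 6972 RPM in Yb WT against 4481 in Yb ΔHel-C, and that of piwi was 873 against 1998. The part of these differences in the results was not tested. Levels on marker genes are Piwi-bound small RNA reads and not a measure of the genes' mRNA. The gene fs(1)Yb encodes Yb, which the siRNA targeted and the plasmids carried. Its level (406 RPM in Yb WT, 645 RPM in Yb ΔHel-C) is therefore not free of the design as a marker. The 6 germline genes (vas, nos, osk, aub, AGO3 and bam) had between 0 and 10.8 RPM, and vas was listed at 0 in Yb WT. Their summed levels were 15.2 RPM in Yb WT against 10.7 RPM in Yb ΔHel-C. That sum follows aub (10.8 against 4.99 RPM), and bam was also lower (2.03 against 1.43 RPM). AGO3, nos and vas were higher in Yb ΔHel-C on 0 to 5 reads, and osk had 1 read in each column.

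Piwi-bound reads on these 90 rows were lower in Yb ΔHel-C. Together the rows held 15036 RPM (44434 reads) in Yb WT against 5417 RPM (15185 reads) in Yb ΔHel-C, a level 2.78-fold lower (interval 2.73 to 2.83). The largest shares of these reads lay on the numbered Gypsy rows, which as a group were also the lower ones, while the DNA transposons stood closer to their Yb WT levels, as did the BEL/Pao elements as a sum but not in their median. A single row, S2, was past 2-fold higher.

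A row was called lower or higher when it differed at least 2-fold on RPM + 0.5 and averaged at least 1 RPM across the columns. The minimum was passed by 81 rows, of which 52 (64.2%) were called lower, 1 (1.23%) was called higher and 28 were neither. The same rule called 5.89% of all 7697 listed rows lower and 44.3% higher. It called 63.3% of all 120 transposon rows lower and 2.5% higher. Of the 39 transposon rows that are not among the 90, it called 61.5% lower and 5.13% higher. The share of lower rows here is thus near that of the other transposons. The median log2 fold was -1.21, the interquartile range ran from -1.62 to -0.89, and 80 of the 81 values lay below 0. The median was 0.88 over all listed rows and 0.89 over the 7577 gene rows.

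An exact test on the reads, which compares the columns and not the conditions, called 63 of the 81 rows lower (77.8%) and 1 higher. It called 8.83% of all listed rows lower and 56.3% higher.

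These folds use the authors' totals. With edgeR's TMM factors the median log2 fold of all listed rows moved by -0.79, and with its RLE factors by -0.84. The rows called lower then numbered 76 and 78 of the 81, with 0 called higher. Of all listed rows 16.0% and 16.7% were then lower, and of the 120 transposon rows 112 and 114. When each column was scaled to its own transposon reads, 4 rows were called lower and 7 higher, so that 36.4% of the calls were lower, against 98.1% on the authors' totals. At that scaling 1.18% of all listed rows were lower, and of the 120 transposon rows 8 were lower and 11 higher. The class medians given below then turned sign, to 0.035 in the gypsy group, 0.30 in the copia group, 0.14 in the BEL/Pao group and 0.47 in the DNA transposons.

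Of the 81 rows, 3 (CIRCE, POGON1 and LOOPER1) were under 1 RPM in Yb ΔHel-C and passed the minimum only through Yb WT. All 3 are among the rows called lower, a call that this way of passing favours. With at least 1 RPM required in both columns, 49 rows were called lower, among them 33 gypsy-group rows and 7 DNA rows. The share over all listed rows was not computed at that setting. LOOPER1 had 7 reads in Yb WT against 0 in Yb ΔHel-C, at least 2.21-fold lower when set against a floor of 3 reads per column, while its exact interval allows a level as little as 1.37-fold lower. With LOOPER1 at that bound the median log2 fold of the 81 rows was -1.16. The 9 rows under the minimum were Chimpo, TRANSPAC, TLD2, DMLTR5, NOF_FB, POGO, P-1_DY, TRANSIB1 and MuDR-1_DEl, with 0 to 3 reads in a column.

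**Figure D1:**
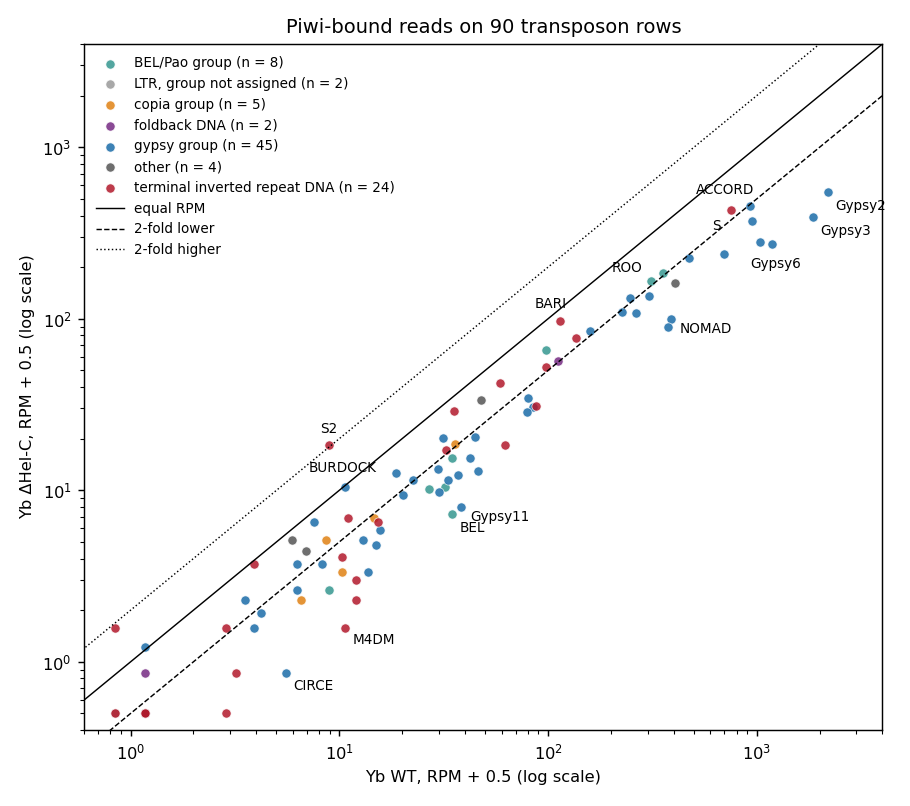
RPM + 0.5 of each of the 90 rows in Yb WT (x axis) and Yb ΔHel-C (y axis), both on log scales, with colours for the classes and lines for equal levels and for 2-fold differences. Nearly every point lies under the line of equal levels, and S2 is the row that lies on the 2-fold higher line at more than a few reads.

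The gypsy group is the family of LTR retrotransposons to which the retrovirus-like gypsy element belongs. Of its 45 rows here 43 passed the minimum, and 34 of these (79.1%) were called lower, none higher and 9 neither. Over all transposon rows 63.3% were called lower, and over all listed rows 5.89%. The median log2 fold of the 43 rows was -1.31. The summed level of the 45 rows was 12031 RPM in Yb WT against 3832 RPM in Yb ΔHel-C, a level 3.14-fold lower (3.07 to 3.21).

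The 13 numbered Gypsy rows (Gypsy1 to Gypsy12A, without Gypsy5) made up most of that sum. They are families named after gypsy by sequence likeness. Together they held 8128 RPM in Yb WT against 2161 RPM in Yb ΔHel-C, a level 3.76-fold lower (3.66 to 3.87). Of the 13 rows 12 (92.3%) were called lower, beside 63.3% of all transposon rows. Gypsy2, the row with the most reads of the 90 in both columns, had 2195 RPM (6486 reads) in Yb WT against 551 RPM (1546 reads) in Yb ΔHel-C, a level 3.98-fold lower (3.76 to 4.21). Gypsy3 went from 1858 to 393 RPM, 4.72-fold lower (4.43 to 5.04). Gypsy6 went from 1187 to 272 RPM, 4.36-fold lower (4.03 to 4.72). These 3 rows lay well under the ratio of the 90 rows together. The interval of Gypsy6 overlaps those of Gypsy2 and Gypsy3, which lie apart from each other. Gypsy1 went from 1042 to 278 RPM, 3.74-fold lower (3.46 to 4.05), and Gypsy12A from 375 to 89.2 RPM, 4.21-fold lower (3.67 to 4.85). Gypsy11 had the lowest ratio of this set, with 112 reads in Yb WT against 21 in Yb ΔHel-C, a level 5.06-fold lower (3.15 to 8.49).

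Other numbered Gypsy rows stood closer to their Yb WT levels. Gypsy4 went from 951 to 370 RPM, 2.57-fold lower (2.39 to 2.77), and Gypsy8 from 305 to 136 RPM, 2.24-fold lower (1.99 to 2.53). The intervals of both lie apart from those of Gypsy1, Gypsy2, Gypsy3 and Gypsy6, so the rows of this set differed among themselves by more than counting error. Gypsy9, with 9 and 5 reads, was the row that was not called.

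The remaining 32 gypsy-group rows held 3902 RPM in Yb WT against 1671 RPM in Yb ΔHel-C, a level 2.34-fold lower (2.26 to 2.42). Of the 30 that passed the minimum 22 (73.3%) were called lower and 8 neither, beside 63.3% lower among all transposon rows. The median log2 fold of the 30 was -1.15. ACCORD had 929 RPM in Yb WT against 453 RPM in Yb ΔHel-C, a level 2.05-fold lower (1.92 to 2.19). MDG3 went from 699 to 239 RPM, 2.93-fold lower (2.68 to 3.20). NOMAD, from 386 to 99.5 RPM, was 3.88-fold lower (3.40 to 4.43). Its interval overlaps those of Gypsy1, Gypsy2 and Gypsy6 and lies apart from those of Gypsy4, Gypsy8 and ACCORD. All 6 Invader rows, elements listed in the same group, were called lower, with log2 folds from -1.53 to -1.10, beside 63.3% of all transposon rows. They held few reads, and the interval of Invader4 (10 and 3 reads) holds a ratio of 1. CIRCE had 15 reads in Yb WT against 1 in Yb ΔHel-C, a level 14.2-fold lower, with an interval from 2.19 to 599 that leaves its size unknown.

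Some gypsy-group elements carry an envelope (env) gene like that of a retrovirus. From a list of such families that may not be complete, 6 have a row (TIRANT, DM297, DM176, NOMAD, ROVER and BURDOCK). None of the numbered Gypsy rows was on that list, so the shares below cover these 6 rows only and not all rows with env. Of these 6 rows 4 (66.7%) were called lower and 2 neither, near the 63.3% lower among all transposon rows. The median log2 fold of the 6 was -1.05 against -1.22 over all transposon rows tested. ROVER went from 471 to 227 RPM, 2.08-fold lower (1.89 to 2.29). TIRANT went from 45.7 to 12.5 RPM, 3.66-fold lower (2.51 to 5.47). BURDOCK was level, with 30 reads (10.2 RPM) in Yb WT against 28 reads (9.99 RPM) in Yb ΔHel-C, a ratio of 0.984 whose interval runs from 0.566 to 1.70. A change in BURDOCK within those bounds was not detectable at this depth.

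Of 7 families known to be held down by Piwi in ovarian somatic cells (MDG1, DM297, DM176, DM412, BLOOD, TABOR and TIRANT) 6 were called lower and 1 neither, and the median log2 fold was -1.29. Over all transposon rows tested 63.3% were called lower and the median was -1.22. MDG1 went from 263 to 107 RPM, 2.46-fold lower (2.15 to 2.82). DM412 went from 78.5 to 28.2 RPM, 2.79-fold lower (2.15 to 3.64), and BLOOD from 29.4 to 9.27 RPM, 3.17-fold lower (2.03 to 5.13). DM297 was 2.08-fold lower (1.81 to 2.39). DM176 went from 246 to 132 RPM, 1.86-fold lower (1.64 to 2.11), and was the family not called. TABOR had 11 and 4 reads, too few to place its ratio, whose interval holds 1.

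The copia group, LTR retrotransposons with a different order of coding domains from gypsy, had 5 rows and few reads. They summed to 73.8 RPM in Yb WT against 33.9 RPM in Yb ΔHel-C, a level 2.18-fold lower (1.70 to 2.80). Their median log2 fold was -1.09, with 3 (60%) called lower and 2 neither, near the 63.3% lower among all transposon rows. Copia went from 35.5 to 18.2 RPM (105 and 51 reads), 1.95-fold lower (1.39 to 2.79). DM1731 was 2.21-fold lower (1.25 to 4.09), and Copia1, with 24 and 13 reads, was 1.75-fold lower (0.857 to 3.74). Copia2 (29 and 8 reads) and FROGGER (18 and 5 reads) were called lower.

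The BEL/Pao group summed to 898 RPM in Yb WT against 458 RPM in Yb ΔHel-C over 8 rows, 1.96-fold lower (1.83 to 2.10). Of these rows 5 (62.5%) were called lower and 3 neither, near the 63.3% lower among all transposon rows. The 3 that were not called held the most reads. DIVER2 went from 354 to 184 RPM, 1.93-fold lower (1.73 to 2.14). ROO, an abundant retrotransposon of the fly genome, went from 312 to 166 RPM, 1.88-fold lower (1.68 to 2.11), and ROOA from 97.5 to 65.3 RPM, 1.49-fold lower (1.24 to 1.81). BEL stood at the other end of the group, with 101 reads (34.2 RPM) in Yb WT against 19 reads (6.78 RPM) in Yb ΔHel-C, a level 5.04-fold lower (3.07 to 8.72), and its interval does not meet those of the 3. The median log2 fold of the 8 rows was -1.29, and the summed ratio is weighted towards DIVER2 and ROO, which held most of the group's reads.

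**Figure D2:**
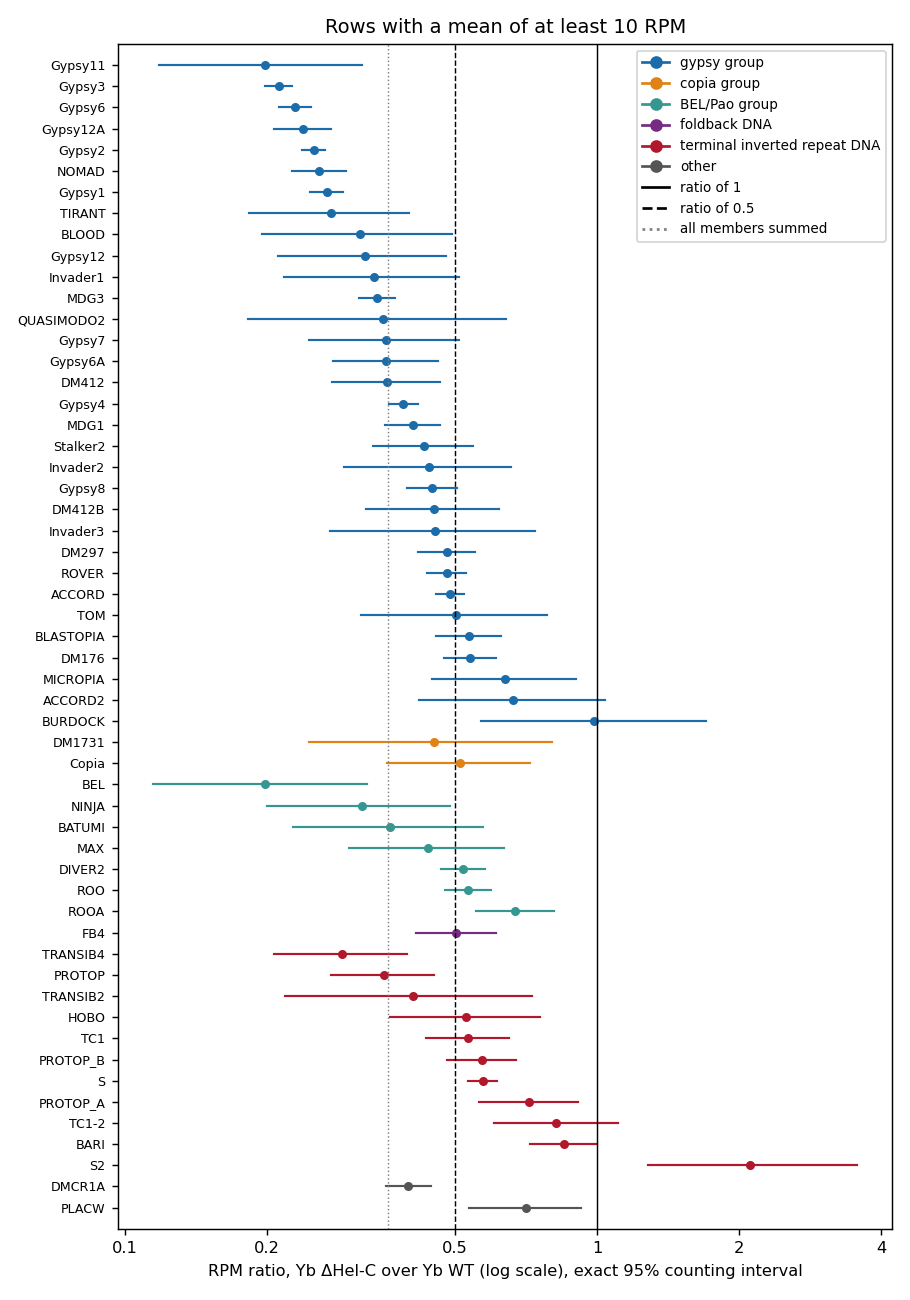
Ratio of RPM in Yb ΔHel-C over Yb WT (log scale) for the 55 rows that average at least 10 RPM, ordered within classes. Points are ratios and bars exact 95% counting intervals; solid, dashed and dotted lines mark a ratio of 1, a ratio of 0.5 and the ratio of the 90 rows summed (0.360). Gypsy1, Gypsy2, Gypsy3, Gypsy6 and Gypsy12A lie left of the dotted line, and Gypsy4, Gypsy8, S, ROO and BARI lie right of it.

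DNA transposons move by a transposase that cuts the element out and inserts it elsewhere, and most end in inverted repeats. The 26 DNA rows summed to 1571 RPM in Yb WT against 891 RPM in Yb ΔHel-C, a level 1.76-fold lower (1.68 to 1.85). Of the 21 that passed the minimum 9 (42.9%) were called lower, 1 (4.76%) higher and 11 neither. Among all transposon rows 63.3% were called lower and 2.5% higher. The median log2 fold of the 21 rows, -0.90, was the same with LOOPER1 at its bound. The count of lower DNA rows depended on the minimum, since only 3 of the 9 had a mean of at least 10 RPM. With at least 1 RPM required in both columns the count was 7, without POGON1 and LOOPER1.

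S, an element of the Tc1 and mariner superfamily, held the most reads of the DNA rows, with 749 RPM (2212 reads) in Yb WT against 428 RPM (1200 reads) in Yb ΔHel-C, a level 1.75-fold lower (1.63 to 1.88). BARI, of the same superfamily, had 114 and 96.7 RPM, 1.18-fold lower (0.999 to 1.39). TC1 went from 97.8 to 52.1 RPM, 1.88-fold lower (1.53 to 2.31). TC1-2 had 34.9 and 28.5 RPM, 1.22-fold lower (0.903 to 1.66). The intervals of BARI and TC1-2 hold a ratio of 1. HOBO, of the hAT superfamily, went from 31.8 to 16.8 RPM, 1.90-fold lower (1.32 to 2.75), and FB4, a foldback element with long inverted repeats, from 111 to 56.0 RPM, 1.99-fold lower (1.64 to 2.42).

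S2 was the exception among the 81 rows, with 25 reads (8.46 RPM) in Yb WT against 50 reads (17.8 RPM) in Yb ΔHel-C, a level 2.11-fold higher (1.28 to 3.56). Its log2 fold of 1.03 kept its sign but was below 2-fold with TMM and RLE factors. Other DNA rows were far lower on few reads. M4DM had 30 and 3 reads, 9.49-fold lower (2.95 to 48.6), and Transib5 34 and 5 reads, 6.45-fold lower (2.51 to 21.1). Transib elements encode a transposase related to the RAG1 recombinase of vertebrates. TRANSIB4 went from 61.9 to 17.8 RPM, 3.47-fold lower (2.53 to 4.85), while TRANSIB3 had 10 and 9 reads.

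Rows with a shared name stem did not always move together. Of 16 pairs of such rows in 14 sets picked by hand, the intervals of 4 pairs did not overlap. Other shared stems, such as Invader, Transib, Copia and Gypsy rows of different number, were not paired, so this is no full tally. Of the 4 pairs, S and S2 were the widest apart. PROTOP, a relative of the P element, went from 87.0 to 30.7 RPM, 2.83-fold lower (2.21 to 3.66), whereas PROTOP_A went from 58.2 to 41.7 RPM, 1.39-fold lower (1.10 to 1.78), and PROTOP_B from 135 to 77.1 RPM, 1.76-fold lower (1.48 to 2.08). Of the reads on PROTOP and PROTOP_A together, PROTOP held 59.9% in Yb WT but 42.4% in Yb ΔHel-C. Gypsy6A, at 83.9 and 30.0 RPM, was 2.80-fold lower (2.18 to 3.63), apart from Gypsy6. The rule by which reads that match several rows were counted is unknown here, so values of rows with alike sequences are uncertain.

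Of the 4 rows that are neither LTR nor DNA elements, DMCR1A held the most reads, with 403 RPM in Yb WT against 161 RPM in Yb ΔHel-C, a level 2.51-fold lower (2.25 to 2.81). PLACW had 47.0 and 33.2 RPM, 1.42-fold lower (1.08 to 1.86). LmeSINE1c had 19 and 11 reads, and TAHRE had 16 and 13 reads.

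The make-up of the reads within the 90 rows therefore differed between the columns. The numbered Gypsy rows held 54.1% of the reads in Yb WT (exact interval 53.6 to 54.5) and 39.9% in Yb ΔHel-C (39.1 to 40.7). The DNA rows held 10.4% (10.2 to 10.7) and 16.4% (15.9 to 17.0). The BEL/Pao rows held 5.97% (5.75 to 6.19) and 8.46% (8.02 to 8.92). By reads, which are not divided by the length of the element, S went from the seventh to the third place and ACCORD from the sixth to the second, while Gypsy6 went from the third to the seventh. The 10 rows with the most reads held 69.7% in Yb WT against 62.7% in Yb ΔHel-C, and 9 of these rows were shared. Across the 81 rows Spearman's correlation of RPM between the columns was 0.95, given as a description since rows of 1 column share its library and depth.

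**Figure D3:**
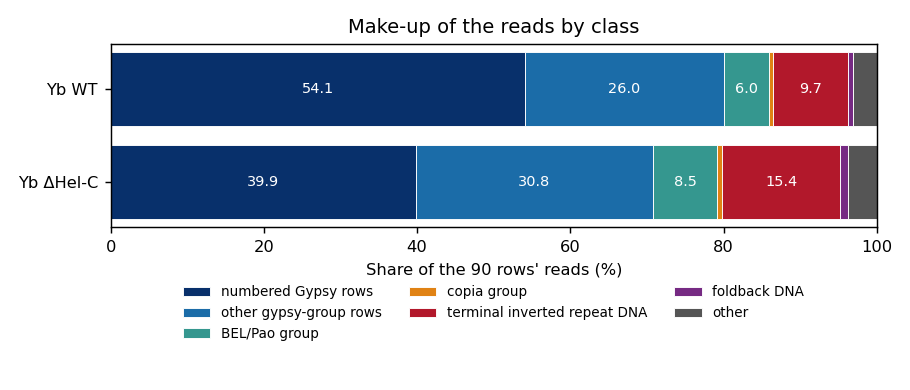
Share of the reads of the 90 rows (x axis, percent) by class in each column; bars are single deposited columns without replicate error, and 2 LTR rows of unassigned group with 3 reads in Yb WT are not drawn. The numbered Gypsy segment shrinks from 54.1% to 39.9% and the inverted-repeat DNA segment widens from 9.70% to 15.4%.

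Individual rows departed from the ratio of the 90 rows together (0.360) by more than counting error. The intervals of 9 of the 81 rows lay wholly below that ratio, those of 25 wholly above it, and those of 47 held it. The 9 were Gypsy1, Gypsy2, Gypsy3, Gypsy6, Gypsy11, Gypsy12A, NOMAD, BEL and M4DM. The 25 included 11 gypsy-group rows, 3 BEL/Pao rows and 9 DNA rows. The level of a row and its fold were nearly unrelated in rank, with a Spearman's correlation of -0.14 over the 55 rows that average at least 10 RPM. Without Gypsy2 and Gypsy3 the ratio of the summed levels was 0.407.

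Against the other transposons, the 90 rows held 30.1% of all transposon reads in Yb WT (29.9 to 30.4) and 30.0% in Yb ΔHel-C (29.6 to 30.4), intervals that overlap. The 8 soma-active gypsy-group rows set aside by the rule were 2.74-fold lower (2.71 to 2.78) and the 32 LINE rows 3.84-fold lower (3.65 to 4.05), each as a sum. Without HELENA_RT, the LINE row with the most reads in Yb WT and left out after the values were seen, the other 31 were 2.75-fold lower (2.59 to 2.92), close to the 90 rows. The 3 telomeric rows together had a ratio of 0.720 (0.667 to 0.777), which TART_B1 (0.620) dominates, since TART-A was 2.16-fold higher and HETA had 38 reads in each column. None of these differences between sets has a replicate test.

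**Figure D4:**
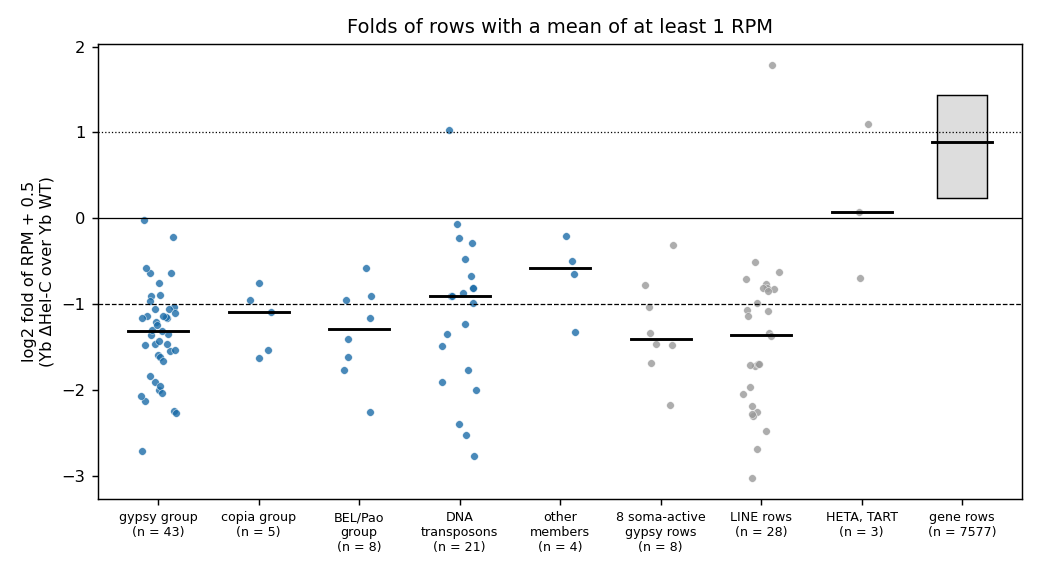
Log2 fold of RPM + 0.5 (Yb ΔHel-C over Yb WT, y axis) for rows that average at least 1 RPM. Blue points are the rows examined here by class, grey points the other transposon rows, black bars medians, and the box the interquartile range of 7577 gene rows; lines mark no change and 2-fold differences. Among the LTR and DNA classes medians run from -1.31 in the gypsy group to -0.90 in the DNA transposons. The median of the 4 rows of neither kind is -0.57, and the gene median is 0.89.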

How the data were processed

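The authors' deposited table gives 1 column per group in RPM, a unit judged from the values since the header names none. The submitters' processing notes name 2 tools, HTSeq and STAR, and the builds dm6 and BDGP6, with no role or version. The pooling of libraries, the strand setting, the treatment of multi-mapping reads, and the transposon sequences with their lengths are not stated in any label or header. Levels were therefore not divided by length. All values above 0 (100%) were whole multiples of 1 step per column within 0.01 read (0.338 RPM in Yb WT, 0.357 RPM in Yb ΔHel-C), which gave read counts and totals.

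Ratios of RPM have exact conditional (Clopper-Pearson) 95% intervals (scipy 1.17.1). Log2 folds use RPM + 0.5. Intervals and calls were also run on simulated data, with the outcome not given here. Simulated counts cannot show how far duplicate reads or differences between libraries affect these rows. That run is therefore no evidence for the intervals, or for the calls on rows with few reads. TMM and RLE factors came from edgeR 4.0.16. Replicate tests could not be fitted to 1 column per group. An exact conditional binomial test on the recovered reads, with Benjamini-Hochberg adjustment over all 7697 rows at 0.05, compares the columns and not the conditions, and is an alternative only.

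Members, classes and lists were chosen with earlier results of these data known. Rows named are the 12 with the highest mean RPM, up to 3 per class, the 6 lowest and 6 highest ratios at a mean of at least 10 RPM, list members at that mean, and rows past 2-fold higher. Every other row named, such as Gypsy8, the Invader rows, CIRCE, Copia2, FROGGER, MINOS and LOOPER1, was chosen after its values were seen.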

Additional observations from a re-analysis of the deposited data

How the results depend on the processing

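The ratio of the summed levels (0.360) was 0.201 with TMM, 0.194 with RLE, 0.309 scaled to the listed rows, 0.995 scaled to the transposon reads, where the 90 rows as a sum were level, and, in alternatives chosen after seeing the data, 0.407 without Gypsy2 and Gypsy3 and 0.455 without rows of a mean over 100 RPM. The number of rows called lower stayed between 35 and 78, except for 4 scaled to the transposon reads. The exact test on recovered reads called 63 lower and 1 higher of the 81 (680 and 4337 of all rows), and 48 were lower by the test and 2-fold together. The rows called higher were 0 with TMM, RLE, the listed rows or a pseudocount of 1 RPM, and 7 scaled to the transposon reads. The DNA count of 1 higher likewise became 0 in those settings and 4 scaled to the transposon reads. With TMM and RLE the rows called lower were 5 of 5 in the copia group (main count 3), 8 of 8 in BEL/Pao (main count 5) and 19 of 21 DNA rows (main count 9), and 15 DNA rows were lower scaled to the listed rows. Of the 120 transposon rows 112 were lower with TMM, 114 with RLE and 93 scaled to the listed rows. At a mean of at least 10 RPM those 35 rows (63.6% of 55) included 1 copia row, DM1731, and 3 DNA rows. Copia was the only other copia row to reach that mean, and fewer than 21 DNA rows reached it. These counts are therefore not comparable with the main counts. The share over all listed rows was not computed at that mean. The median log2 fold was -2.12 with TMM and -2.17 with RLE in the gypsy group, -1.88 and -1.93 in the copia group, and -1.79 with RLE for DNA rows. Scaled to the transposon reads, the medians became 0.035 (gypsy group), 0.30 (copia group), 0.14 (BEL/Pao) and 0.47 (DNA), with 1 gypsy-group row lower and 2 higher, 0 copia and 0 BEL/Pao rows lower and 3 DNA rows lower. Of the 35 named rows 22 changed sign there, 7 of them called 2-fold lower on the authors' totals, namely ACCORD (0.43), DM1731 (0.30), DM297 (0.41), DMCR1A (0.14), Gypsy4 (0.10), MDG1 (0.17) and ROVER (0.41). That scaling sets the sum of transposon reads equal by construction, and TMM and RLE take most rows, nearly all of them genes, as unchanged. Of 210 alternative values of 35 named rows, 97 kept their sign within the row's counting interval, 91 kept it outside that interval and 22, all scaled to the transposon reads, changed sign.

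No paired analysis was possible because the table has 1 column per group, and leaving out a replicate could not be run for the same reason. Summing internal and LTR rows of a family was not run, since 0 names separate them. A column that lists a row at 0 allows up to 1.02 RPM (Yb WT) or 1.07 RPM (Yb ΔHel-C).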

Other observations

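Some rows named for elements of other species held few reads, unlike PLACW, which carries the name of a laboratory construct. A full tally of such rows was not made. P-1_DY and MuDR-1_DEl had 2 and 1 reads in Yb WT, against 0 in Yb ΔHel-C, LmeSINE1c had 19 and 11 reads, and MINOS, an element first described in another Drosophila species, had 29 and 10 reads (2.75-fold lower, 1.30 to 6.33). PLACW had 139 and 93 reads. Piwi-bound reads on pogo-type rows were split in direction on very few reads. POGO had 1 and 3 reads and POGON1 had 8 and 1 reads. Stalker3 had 21 and 17 reads, beside 236 and 96 on Stalker2.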
